A study of Mus musculus with 6 samples.

Results

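The renin-angiotensin-aldosterone system was examined through 8 genes in RNA from polycystic mouse kidneys. They were *Ren1*, *Agt*, *Ace*, *Agtr1a*, *Agtr1b*, *Atp6ap2*, *Nr3c2* and *Sgk1*, taken by gene symbol from a table of 23276 symbols, in which all 8 were listed with 16 transcript rows among 54721. The kidneys came from 3 mice labelled KspCre; Pkd1 F/RC (SKO) and from 3 that were miR17~92 F/F besides (DKO), at postnatal day 22 by the labels and at a slightly younger age by the paper. Both groups carried the Cre transgene, 1 floxed *Pkd1* allele and 1 hypomorphic RC allele, on a B6 background, and the DKO mice were also homozygous for the floxed miR-17∼92 cluster. KspCre acts in renal tubule epithelium, so the floxed alleles of renin-secreting cells, vessels and interstitium are not its usual targets, and the RC allele is present in every cell. The study compared the 2 groups to learn what loss of miR-17∼92 changes in a cystic kidney.

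The values reported here are the authors' means over all 6 kidneys, in CPM, the reads counted on a transcript row scaled to the size of the library. No value of a single kidney was used, so no spread between mice and no difference between SKO and DKO kidneys is given, and the depth of each library is unknown. The lowest mean in the table, 0.0263 CPM, was shared by 4617 rows and stands for rows with next to no reads. The 2 loci altered in the study were both above it, *Pkd1* at 31.8 CPM and *Mir17hg*, the host transcript of miR-17∼92, at 4.21 CPM, but a mean over both groups cannot check a deletion in one of them. Tubule markers were abundant, with *Slc34a1* (proximal tubule) at 1030.2 CPM, *Umod* (thick ascending limb) at 1022.4 CPM, *Slc12a3* (distal convoluted tubule) at 169.4 CPM and *Aqp2* (principal cells) at 77.7 CPM. The podocyte gene *Nphs1* was lower at 13.0 CPM, above 72.7% of all genes. *Pecam1*, an endothelial gene, had 52.7 CPM. In whole-kidney RNA, fewer cells of a type and less RNA per cell cannot be told apart.

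In this system renin, secreted by juxtaglomerular cells of the afferent arteriole, cuts angiotensinogen to angiotensin I, and angiotensin-converting enzyme trims that peptide to angiotensin II. Angiotensin II acts mainly through type 1 receptors on vessels, the adrenal gland and the tubule. Aldosterone from the adrenal cortex then binds the mineralocorticoid receptor of the distal nephron, whose target SGK1 keeps the epithelial sodium channel at the cell surface. The system is followed closely in polycystic kidney disease, where expanding cysts press on renal vessels.

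Of the 8 genes, 7 had a mean of at least 1 CPM and *Agtr1b* did not. Across all gene symbols 55.9% reached that level. With each gene represented by its row of highest mean, the median was 36.4 CPM, against 2.37 CPM over all genes and 12.6 CPM over genes with at least 1 CPM. *Sgk1* had the highest mean, 121.8 CPM, above 98.1% of all genes. *Ace* followed at 103.8 CPM, *Atp6ap2* at 49.0 CPM, *Ren1* at 43.1 CPM, *Agt* at 29.7 CPM, *Agtr1a* at 17.5 CPM and *Nr3c2* at 11.99 CPM. *Agtr1b* stood far below at 0.0541 CPM, above 27.1% of all genes.

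**Figure D1:**
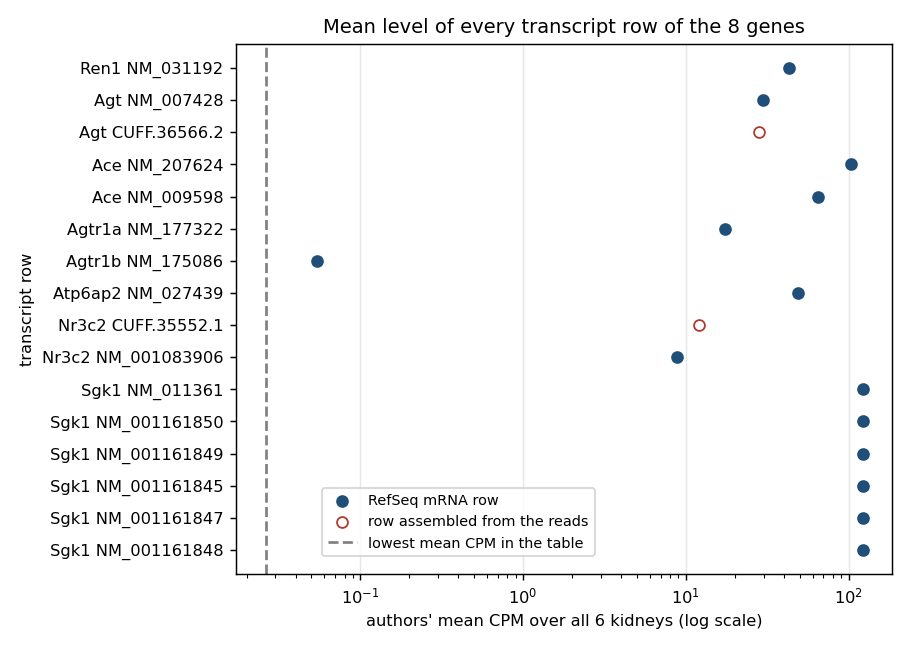
Each point is 1 transcript row of the 8 genes, placed by the authors' mean CPM over all 6 kidneys on a log axis. Filled points are RefSeq mRNAs, open points are transcripts assembled from the reads, and the dashed line is the lowest mean in the table, 0.0263 CPM. The 6 *Sgk1* rows coincide near 121.8 CPM, the 2 *Ace* rows lie at 103.8 and 64.8 CPM, and *Agtr1b* sits close to the dashed line.

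**Figure D2:**
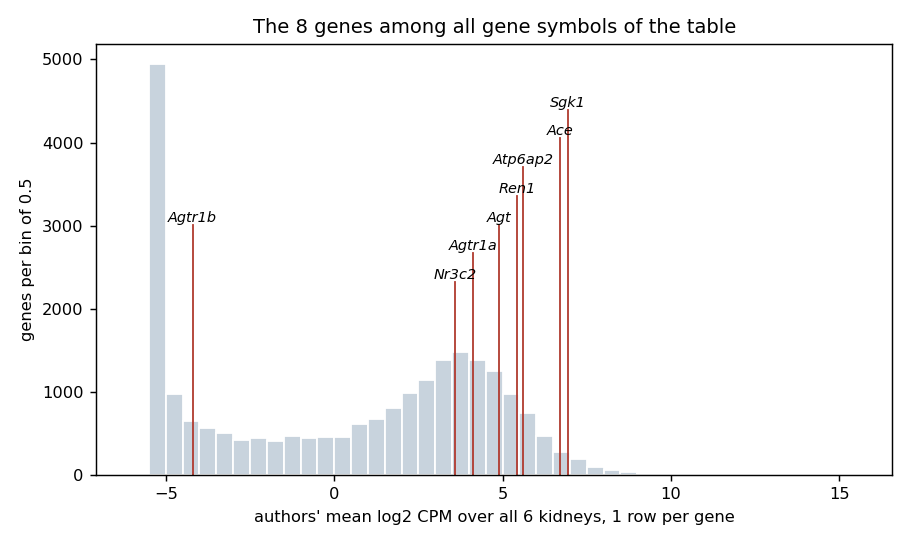
Bars count all 23276 gene symbols by their mean log2 CPM over all 6 kidneys in bins of 0.5, and red lines mark the 8 genes, with line heights that only separate the names. *Agtr1b* lies in the low part of the distribution at -4.21, and the other 7 genes lie between 3.58 for *Nr3c2* and 6.93 for *Sgk1*.

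Because long transcripts collect more reads, genes were set beside each other as CPM per kb of transcript. On that scale *Sgk1* was again first at 49.6 CPM per kb. *Ren1* was second at 27.1 CPM per kb. *Ace* at 21.1 and *Atp6ap2* at 21.1 CPM per kb were level, with a ratio of 1.003. *Agt* had 15.7, *Agtr1a* 7.95, *Nr3c2* 1.56 and *Agtr1b* 0.0252 CPM per kb. The largest steps in this order were those from *Nr3c2* to *Agtr1b*, 61.8 times, and from *Agtr1a* to *Nr3c2*, 5.10 times. The 61.8 depends on the small offset in every mean, because *Agtr1b* was at only 2.06 times the lowest mean of the table. No step was tested, because the spread between kidneys is unknown.

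Renin and its substrate were both expressed in these kidneys. *Ren1* encodes the aspartyl protease renin and lies on the forward strand of chromosome 1 (GRCm38, the assembly also known as mm10, 133350510 to 133360325). Its single row, NM_031192, covers 9 exons and 1592 bases and had 43.1 CPM, above 91.4% of all genes. The table also holds a row for *Ren2* (NM_031193), the duplicated renin gene that some mouse strains carry and C57BL/6 mice lack. That row had the same mean as *Ren1* in every digit given, 43.1 CPM, and GENCODE M21, which annotates the C57BL/6J genome, has 0 genes named *Ren2*. The 2 rows therefore cannot be read as separate measurements of 2 genes, and the level is one of renin RNA. No stretch of 51 bases, the read length, of the *Ren1* transcript recurred exactly in a transcript of another GENCODE gene. *Ren2* was not part of that search, because GENCODE M21 has no gene of that name.

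*Agt*, the angiotensinogen gene, lies on the reverse strand of chromosome 8 (124556534 to 124569706). Its RefSeq row (NM_007428, 5 exons, 1891 bases) had 29.7 CPM and its assembled row 28.2 CPM, a ratio of 1.05. Per kb, *Ren1* was 1.73 times *Agt*. Angiotensinogen is made chiefly by the liver. All 3 hepatocyte marker genes (*Alb*, *Apoa1* and *Ttr*) had at least 1 CPM, a level that 55.9% of all gene symbols reached. Per kb, *Ttr* had 15.3, *Alb* 6.58 and *Apoa1* 1.35 CPM. Their part in the level of *Agt* was not tested.

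Genes known from renin cells and the juxtaglomerular region were scarcer than renin itself. Of 5 such genes, 3 reached 1 CPM, a level that 55.9% of all gene symbols reached. The highest per kb was *Akr1b7*, an aldo-keto reductase co-expressed with renin, at 1.87 CPM per kb, and the lowest was *Nos1*, the nitric oxide synthase of the macula densa, at 0.0355 CPM per kb.

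The converting enzyme was represented by 2 rows that differ in where the transcript starts. *Ace* lies on the forward strand of chromosome 11 (105967945 to 105989964). NM_207624, the somatic form with both catalytic domains, has 25 exons and 4906 bases and had 103.8 CPM. NM_009598, the testis form with a single domain, had 64.8 CPM. Its matched GENCODE transcript starts at 105975208, within intron 12 of the somatic one, and has 14 exons and 2418 bases. Of its bases, 91.9% are also exonic in the somatic transcript, and 196 are its own. The somatic transcript has 2684 bases that the testis form lacks. The rows differed by 39.0 CPM, and per kb they had 21.1 and 26.8 CPM. Most of the reads in the testis row can come from exons of the somatic form, so its level is no measure of testis-form RNA. The antisense gene *Gm11651* runs across part of *Ace*, and 4.10% of the 51-base windows of the somatic transcript also occur in it. The libraries were stranded, but whether counting used the strand is not given in the sources used here.

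The 2 *Ace* starts have different sequence around them. Each window below is 300 bases around a RefSeq start in GRCm38.p6, forward strand, with matches to a TATA box (TATAAA) or a GC box (GGGCGG) in capitals on either strand. The somatic window, chr11:105967698-105967997, comes first and the testis window, chr11:105974939-105975238, second.
Ace somatic start: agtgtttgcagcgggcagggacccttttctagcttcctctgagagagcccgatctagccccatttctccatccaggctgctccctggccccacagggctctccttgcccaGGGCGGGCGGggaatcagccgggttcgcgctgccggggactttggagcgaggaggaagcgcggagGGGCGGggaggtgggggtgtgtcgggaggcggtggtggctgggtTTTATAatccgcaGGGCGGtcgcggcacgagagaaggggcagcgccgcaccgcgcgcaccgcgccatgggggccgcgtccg
Ace testis start: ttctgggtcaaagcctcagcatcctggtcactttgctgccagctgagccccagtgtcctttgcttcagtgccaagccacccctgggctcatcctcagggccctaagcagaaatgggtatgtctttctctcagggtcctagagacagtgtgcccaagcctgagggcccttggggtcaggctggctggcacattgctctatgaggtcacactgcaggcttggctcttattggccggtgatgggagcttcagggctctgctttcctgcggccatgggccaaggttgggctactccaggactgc

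The somatic window held 4 GC boxes, 2 of them overlapping, and 1 TATA box on the opposite strand, and its GC content was 69.7%. Read on the forward strand, the TATA match continues as TTTATAAT. That stretch holds TATAAT, 1 letter from TATAAA, a near match that was not counted. In the testis window neither motif was found and the GC content was 59.0%. Neither window held an exact match to the cyclic AMP response element TGACGTCA. The testis window holds TGAGGTCA, which differs from it by 1 letter, and such variants were not counted. Of all 32851 promoter windows of this length, 35.7% held a GC box, 13.6% a TATA box and 1.79% the cyclic AMP response element, on either strand. A match is a string of letters and not a measured binding site.

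The paralogous type 1 angiotensin receptors had very unequal levels. *Agtr1a*, the main type 1 receptor of the mouse kidney, lies on the forward strand of chromosome 13 (30336441 to 30382867). Its row, NM_177322, has 2199 bases and had 17.5 CPM. *Agtr1b*, its paralogue, lies on the reverse strand of chromosome 3 (20314473 to 20367177). Its row, NM_175086, has 2147 bases and had 0.0541 CPM, which is 2.06 times the lowest mean in the table. Per kb, *Agtr1a* was 315.1 times *Agtr1b*. That ratio depends on the small offset that every mean contains, and once the lowest mean was subtracted from both rows the ratio of CPM was 627.4.

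The coding sequences of the pair are alike. Both have 1077 bases, of which 978 are identical in an alignment (90.8%), and the longest identical stretch is 66 bases. Reads that fall wholly in such stretches map to both genes and are lost when ambiguous alignments are discarded. Only 31 of the 2149 windows of 51 bases in *Agtr1a* (1.44%) and 31 of the 2097 in *Agtr1b* (1.48%) recurred in the other gene, so most of either transcript can be told from its partner at this read length.

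*Atp6ap2*, the prorenin receptor and an accessory protein of the vacuolar proton pump, lies on the X chromosome (12587801 to 12617049). Its row, NM_027439, covers 9 exons and 2324 bases and had 49.0 CPM, above 92.7% of all genes. Per kb it was 2.65 times *Agtr1a*. Of its 51-base windows, 2.68% also occurred in the pseudogene *Gm36448*.

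Among other receptor genes, *Agtr2*, the type 2 angiotensin receptor, had 0.171 CPM, or 6.48 times the lowest mean, and *Mas1*, the receptor for angiotensin 1-7, had 0.0971 CPM. *Agtrap*, whose product binds the type 1 receptor, was the highest of these 3 genes at 28.1 CPM and 6.98 CPM per kb. *Agtr2* and *Mas1* were thus both under 1 CPM, as was *Agtr1b*.

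The mineralocorticoid arm held the most and the second least abundant members. *Nr3c2*, the mineralocorticoid receptor, lies on the forward strand of chromosome 8 (76899442 to 77245012). Its RefSeq row (NM_001083906, 5675 bases) had 8.84 CPM and its assembled row 11.99 CPM, a ratio of 1.36. The assembled transcript has no stated length, so only the RefSeq row could be put on the per-length scale, where it had 1.56 CPM per kb. *Sgk1*, the serum- and glucocorticoid-regulated kinase, lies on the forward strand of chromosome 10 (21882184 to 21999903) and was 31.8 times *Nr3c2* per kb. Its induction by aldosterone is shared with glucocorticoids and osmotic stress, and the mean level says nothing of which acted.

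The 6 *Sgk1* rows show how reads were assigned. Their means ran from 121.7 to 121.8 CPM, a difference of 0.119%, although the matched transcripts run from 2456 to 3096 bases. RefSeq gives *Sgk1* 6 promoter windows. The 6 rows were matched to 5 different GENCODE transcripts, with NM_001161847 and NM_001161848 matched to the same one, and 2284 exon bases are common to these transcripts. A read in those bases fits every matched transcript, so the sum of the rows, 730.4 CPM, can count it more than once. Which *Sgk1* start site was used could not be read from these rows.

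The other genes of the pathway were taken from lists by role. Of 10 angiotensin peptidases tabulated, 8 had at least 1 CPM, a level that 55.9% of all gene symbols reached. The median over all 10 peptidases was 3.13 CPM per kb. *Enpep*, glutamyl aminopeptidase, which cuts angiotensin II to angiotensin III, had 20.6 CPM per kb. The lowest of them was *Ctsg*, cathepsin G of neutrophils and mast cells, at 0.0279 CPM, or 1.06 times the lowest mean. All 15 other genes of the mineralocorticoid response had at least 1 CPM, with a median of 22.3 CPM per kb over the 14 with a length. These ran from 7.88 CPM per kb for *Stk39*, a kinase that activates sodium-chloride cotransport, to 63.4 CPM per kb for *Kcnj1*, the ROMK potassium channel. *Hsd11b2*, which inactivates corticosterone and so reserves the receptor for aldosterone, had 58.4 CPM per kb, 37.5 times *Nr3c2*. The 3 subunits of the epithelial sodium channel were *Scnn1a* at 28.9, *Scnn1b* at 23.9 and *Scnn1g* at 14.1 CPM per kb.

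Of the 6 genes of aldosterone synthesis, none reached a mean of 1 CPM, a level that 55.9% of all gene symbols reached. *Star*, which carries cholesterol into mitochondria, was the highest at 0.892 CPM, or 33.9 times the lowest mean, and the other 5 genes were at or below 2.48 times that mean. *Cyp11b2*, the aldosterone synthase, was at the lowest mean of the table, 0.0263 CPM. The adrenal marker *Cyp11b1* was at 1.33 times that level, and the 4 adrenal cortex markers, all of them in this list, were under 1 CPM.

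**Figure D3:**
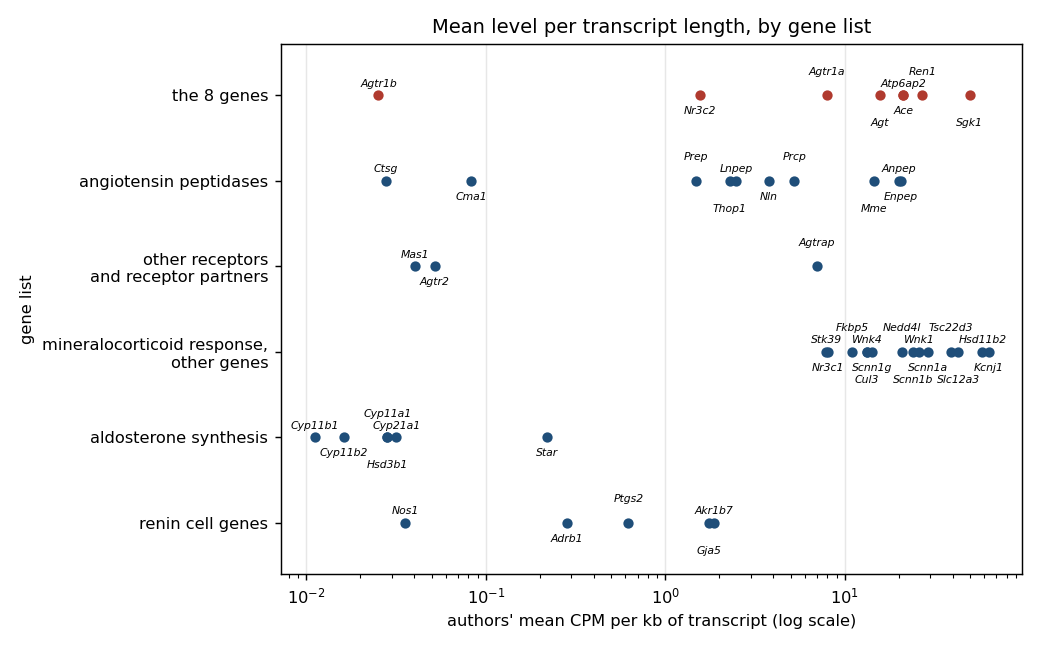
Each point is 1 gene, placed by the authors' mean CPM per kb of transcript over all 6 kidneys on a log axis, and each line of points is a list of genes with the 8 genes on top in red. The other genes of the mineralocorticoid response, without *Nr3c2* and *Sgk1*, lie between 7.88 and 63.4 CPM per kb, whereas the aldosterone synthesis genes lie between 0.0111 and 0.221 CPM per kb, with *Star* the highest of them.

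Since the groups differ by the miR-17∼92 cluster, the 3′-UTRs of the 8 genes were searched for its seeds, the bases 2 to 8 of a miRNA that pair with a target. The mature miRNAs (RefSeq, GRCm38.p6, chromosome 14 from 115043684 to 115044496) are printed with the seed in capitals, grouped by shared seed.
miR-17-5p: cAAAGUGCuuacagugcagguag
miR-20a-5p: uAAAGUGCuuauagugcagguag
miR-18a-5p: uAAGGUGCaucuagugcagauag
miR-19a-3p: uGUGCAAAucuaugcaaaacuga
miR-19b-3p: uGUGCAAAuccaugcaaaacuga
miR-92a-3p: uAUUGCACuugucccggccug

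Both genes of the mineralocorticoid arm, *Nr3c2* and *Sgk1*, held 1 match to the miR-19 seed in the 3′-UTR, and the other 6 genes held no match to any of the 4 seeds. The matches, 7 letters long, are in capitals within 23 bases of 3′-UTR.
Nr3c2 3′-UTR, chr8:77242921-77242943, forward strand: acccttggTTTGCACataaaatg
Sgk1 3′-UTR, chr10:21998919-21998941, forward strand: taaaagaaTTTGCACacctggaa

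The *Nr3c2* match begins at base 399 of a 3′-UTR of 2477 bases, and the *Sgk1* match at base 100 of 1076 bases. Over 17902 genes with a 3′-UTR, 10.1% held a match to the miR-19 seed, 11.2% to the miR-17 and miR-20a seed, 7.20% to the miR-18a seed, 6.04% to the miR-92a seed, and 26.6% to any of them. The 8 genes had 0.251 matches per kb of 3′-UTR, against 0.300 over all genes. A seed match is not evidence that the miRNA acts on the transcript.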

How the data were processed

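Total RNA of 6 kidneys was sequenced as stranded 51-base single-end reads. The genome build was mm10, the aligner TopHat2 2.0.12 and the gene models those of iGenomes. Read ends of poor quality had been cut off beforehand, and uncertain alignments were not kept. The submitters' processing notes also name Cufflinks, featureCounts of Subread 1.4.6 and edgeR 3.2.4, without settings.

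The deposited values used here are the authors' mean log2 CPM of each transcript row over all kidneys, which edgeR computes with a small offset. The other 4 columns hold the authors' own comparison of DKO with SKO kidneys (fold change, test statistic, p-value and adjusted p-value) and were not used. The planned test on counts could not be run without values of single kidneys, so no comparison of groups was made. Depth is unknown, and no interval was set.

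Means were turned to CPM as powers of 2. A gene was represented by its row of highest mean. Lengths came from GENCODE M21 (GRCm38) through RefSeq identifiers matched on symbol, for 21212 of 23276 genes and 14 of 16 member rows. The planned coding lengths from a protein table were replaced by transcript lengths. Per-length values used the highest row with a length. Promoter and miRNA sequences came from RefSeq and 3′-UTRs from GENCODE, 1 transcript per gene. All members had a promoter window except *Agtr1a*. Named genes were the members, the top and bottom gene of each list per kb, *Agtr2*, *Hsd11b2* and *Cyp11b2*, and the genes next to each member in level. *Enpep*, *Scnn1a*, *Scnn1b* and *Scnn1g* were added after their values were seen. Some genes that this rule or the marker lists name are not reported here. Members and lists were chosen with earlier results of these data known. The rank and motif searches were tested on simulated data. Python 3.11.15, numpy 2.4.6, pandas 2.3.3 and Biopython 1.88 were used.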

Additional observations from a re-analysis of the deposited data

How the results depend on the processing

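Summing all rows of a gene in place of its highest row moved *Agt* to 57.8 CPM, *Ace* to 168.5 CPM, *Nr3c2* to 20.8 CPM and *Sgk1* to 730.4 CPM, where 1 read can count in several rows. Subtracting the lowest mean of the table moved *Agtr1b* to 0.0278 CPM, and ranking among all rows in place of genes put it above 14.1% of them. Without a length, *Ace* took place 2, *Atp6ap2* place 3 and *Ren1* place 4 among the 8 genes. Coding lengths from a protein table had been planned, and the GENCODE coding lengths used here were chosen after seeing the data. Per kb of that coding sequence, *Atp6ap2* took place 2, *Ren1* place 3 and *Ace* place 4, so the order of these 3 genes rests on the length used. All other levels stayed within 1.5 times, and all other places stayed, under these alternatives. Using only RefSeq rows moved no level by more than that. Ranking only genes with at least 1 CPM lowered the rank of each of the 7 genes, and *Agtr1b* could not be ranked there. *Nr3c2* went from above 71.1% of genes to above 48.3%, and *Agtr1a* from above 77.9% to above 60.5%. *Sgk1* moved least, from above 98.1% to above 96.6%. DESeq2, no filter on low counts and leaving out a replicate were not run, because each needs counts of single kidneys. No paired analysis was possible because the values used are means over all 6 kidneys, with none for a single kidney. Depth is unknown, so how far it limits the low values of *Agtr1b*, *Agtr2*, *Mas1* and *Ctsg* cannot be stated.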

Other observations

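The genes next to each member in mean level show how densely levels are packed. *Ren1* was tied with *Ren2*, and the next lower gene was *Myo1d*. The next higher and next lower genes were *Prosc* and *Gna13* for *Agt*, *Zfp36l1* and *Hnrnpab* for *Ace*, *Dhdds* and *Clk3* for *Agtr1a*, *Cyp8b1* and *1700001D01Rik* for *Agtr1b*, *Sbf2* and *Sgms2* for *Atp6ap2*, *Gon4l* and *Aimp1* for *Nr3c2*, and *Spink3* and *St13* for *Sgk1*. The gap between the 2 neighbours ran from 6.88e-05 to 0.00880 on the log2 CPM scale. Nothing is drawn from these neighbours about shared function.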
